A study of Mus musculus with 8 samples.

Results

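The interferon-inducible GTPases are a group of genes that cells switch on in response to interferons. The 10 examined here were taken by symbol: Irgm1, Irgm2, Igtp, Tgtp1, Tgtp2, Iigp1, Gbp2, Gbp3, Gbp7 and Gbp9. All 10 were present among the 14765 genes of the count table, and all 10 passed the low-count filter that left 13911 genes for testing. They were proposed with the comparison of injured and control mice in view, so their differences between those groups are given as a description, without a test of their own. Poly(A) RNA of PrL tissue, a name used for the prelimbic part of the frontal cortex, was sequenced in bulk from mouse brain, and the genotype of every sample is given as C57. There were 4 libraries from mice with SNI (in pain research, spared nerve injury, in which branches of the sciatic nerve are cut) and 4 from Sham mice. Age, sex and time after surgery are not in the labels. Nor do they state that the libraries are separate animals, so p-values reflect only how far these libraries varied, and that variation could be technical. Group means are given ± SD over the 4 libraries of a group, and log2 fold changes are SNI relative to Sham ± SE.

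The immunity-related GTPases, or IRG proteins, and the guanylate-binding proteins, or GBPs, defend cells against microbes that live in vacuoles. Tgtp1, Tgtp2 and Iigp1 encode effector IRG proteins that coat such vacuoles, while Irgm1, Irgm2 and Igtp (also called Irgm3) encode the regulatory IRGM proteins that keep the effectors off the membranes of the cell itself. GBPs are larger relatives of dynamin that gather on vacuoles and bacteria and help start inflammasome signalling. Transcription of both families is driven by interferons through transcription factors that bind the GAS element and the interferon-stimulated response element (ISRE). In brain, microglia, astrocytes and endothelial cells are known to respond to interferon in this way.

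A difference between the groups outside the GTPases bears on every comparison. Cx3cr1, the microglial fractalkine receptor, was at 44.8, 51.8, 55.3 and 52.8 CPM (counts scaled to library size, with TMM factors) in Sham replicates 1 to 4 and at 2.23, 1.54, 2.13 and 1.81 CPM in SNI replicates 1 to 4. Its log2 fold change, -4.74, was the lowest of all tested genes. Of the 17 microglia markers tested, edgeR called 1 lower at an FDR of 0.05 (Cx3cr1), beside 2.87% of all tested genes. It called 2 higher, Tmem119 and P2ry12 (log2 fold changes 0.48 and 0.59), beside 2.15%. DESeq2 called 3 lower and 5 higher, and limma voom 1 lower and 1 higher. A positive log2 fold change was found in 13 and a negative one in 4. Fcrls (-1.19, all SNI values below all Sham values) and Olfml3 (-0.40) were the next lowest and did not pass in edgeR, so the markers of this cell type did not move as one. Both groups carry the same genotype label, and the origin of this difference was not tested. Anything besides the surgery that differed between the groups cannot be told apart from it.

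The promoters of the GTPase genes come before their values because they carry the motifs that tie the family to interferon. RefSeq promoters of 300 bases (250 before the transcription start and 50 after, GRCm38.p6) were found for 8 of the 10 genes, all but Iigp1 and Gbp9. Each stretch below reads 5′ to 3′ on the strand of its gene, with 25 bases on either side of its ISRE match. Capitals mark every match to an ISRE pattern (GAAA, any 2 bases, then GAAA, on either strand) or a GAS pattern (TTC, any 3 bases, then GAA, which is its own reverse complement).
Irgm1: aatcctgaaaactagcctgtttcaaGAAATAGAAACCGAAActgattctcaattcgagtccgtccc
Irgm2: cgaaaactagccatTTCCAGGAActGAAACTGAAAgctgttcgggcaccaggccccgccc
Igtp: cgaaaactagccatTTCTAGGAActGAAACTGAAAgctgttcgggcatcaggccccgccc
Tgtp1: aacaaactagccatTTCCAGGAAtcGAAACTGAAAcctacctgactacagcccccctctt
Tgtp2: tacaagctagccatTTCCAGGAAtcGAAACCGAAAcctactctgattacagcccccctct
Gbp2: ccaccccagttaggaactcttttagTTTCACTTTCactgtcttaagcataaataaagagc
Gbp3: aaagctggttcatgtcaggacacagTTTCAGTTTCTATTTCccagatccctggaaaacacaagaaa
Gbp7: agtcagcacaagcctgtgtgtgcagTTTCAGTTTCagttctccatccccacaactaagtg

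These stretches lie at chr11:48871410-48871475 (Irgm1, minus strand), chr11:58214888-58214947 (Irgm2, plus), chr11:58199497-58199556 (Igtp, plus), chr11:48992289-48992348 (Tgtp1, minus), chr11:49064248-49064307 (Tgtp2, minus), chr3:142620579-142620638 (Gbp2, plus), chr3:142559974-142560039 (Gbp3, plus) and chr3:142530258-142530317 (Gbp7, plus). All 8 genes had an ISRE match, and it lay between 77 and 15 bases before the transcription start. Irgm1 and Gbp3 had 2 overlapping matches each. A second annotated promoter of Gbp3 had 0 matches, so 8 of the 9 member promoters (88.9%) held the pattern, against 3.44% of the 32851 promoters in the RefSeq table. The GAS pattern was present in 5 of the 9 (55.6%) and in 8.3% of all promoters. Of the interferon lists described below, the other antiviral genes had the ISRE pattern in 36.7% of 49 promoters and the GAS pattern in 18.4%. Among the relatives of the GTPases, 1 of 3 promoters held each pattern. The ISRE shares were 12% for the signalling list, 14.3% for the antigen presentation list and 0% for the membrane targeting list. Gbp7 had 2 GAS matches, between 106 and 79 bases before its start and outside the stretch printed here.

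Irgm2, Igtp, Tgtp1 and Tgtp2 shared a tighter arrangement, in which the GAS match was followed after 2 bases by the ISRE match. That arrangement, looked for on either strand after the printed stretches had been seen, occurred in 5 of the 32851 promoters. They belong to these 4 genes and to Gm12185, a gene whose annotated span overlaps that of Tgtp1 and whose level was not analysed here. Irgm2 and Igtp had 68.1% identical bases over 270 aligned promoter bases, and Tgtp1 and Tgtp2 51.7% over 292, without gaps. Among other genes called lower in SNI, 3.28% of 427 promoters held an ISRE match, close to the 3.02% over all tested genes. A match describes the letters in these windows and does not show that a factor was bound.

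**Figure D1:**
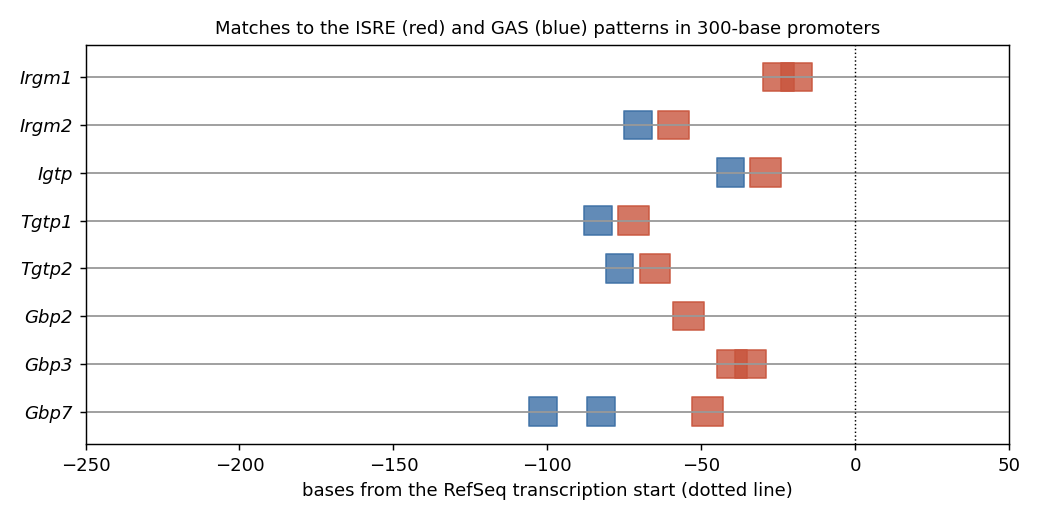
Position of ISRE pattern matches (red) and GAS pattern matches (blue) in the promoters of 8 genes, in bases from the RefSeq transcription start (dotted line). The red boxes all lie within 77 bases before the start, and in Irgm2, Igtp, Tgtp1 and Tgtp2 a blue box stands 2 bases upstream of the red one.

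In the comparison of SNI with Sham, all 10 genes had a lower fitted level in SNI, with log2 fold changes from -1.77 to -0.25 and a median of -0.999. The median over all 13911 tested genes was 0.01. Irgm2, Tgtp1, Tgtp2, Igtp and Gbp3 were below an FDR of 0.05 in the fit across all genes (edgeR quasi-likelihood test, Benjamini-Hochberg adjustment). That is 5 of the 10, beside 2.87% of all tested genes called lower and 5.02% called in either direction. The 4 SNI values all lay below the 4 Sham values for 4 of the 10 genes (Irgm2, Igtp, Tgtp2 and Gbp3), beside 7.02% of all tested genes. For 0 of the 10 did all SNI values lie above all Sham values, beside 5.64%. Since these genes were chosen on this comparison, nothing is read from these counts.

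Among the regulatory IRGM genes, Irgm2 differed most. Its level was 11.1, 6.97, 17.2 and 15.7 CPM in Sham replicates 1 to 4, and 2.60, 3.76, 4.99 and 3.62 CPM in SNI replicates 1 to 4. The groups did not overlap, and the nearest libraries were Sham replicate 2 and SNI replicate 3. The Sham mean was 12.7 ± 4.67 CPM and the SNI mean 3.74 ± 0.979, which is 3.42-fold lower (log2 fold change -1.77 ± 0.273).

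Igtp, which encodes IRGM3, had 11.2, 8.50, 18.1 and 17.7 CPM in the Sham libraries and 4.46, 7.58, 7.39 and 4.64 CPM in the SNI libraries. Its groups did not overlap either, and its log2 fold change was -1.20 ± 0.262. Irgm1, which takes part in autophagy and in the survival of stem cells and lymphocytes, had 21.1, 13.7, 23.4 and 23.5 CPM in Sham and 10.3, 15.4, 17.5 and 9.46 CPM in SNI. Here SNI replicates 2 and 3 lay above Sham replicate 2. Its log2 fold change was -0.64 ± 0.216, and edgeR did not call it, while DESeq2 did. The fitted SNI level of Irgm2 was 70.7% below that of Sham and the level of Irgm1 35.6% below, a difference between genes that was not tested.

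The effector IRG genes Tgtp1 and Tgtp2 were the scarcest. Tgtp1 was counted 26, 22, 83 and 58 times in Sham replicates 1 to 4 and 10, 19, 24 and 11 times in the SNI replicates. Tgtp2 was counted 31, 26, 107 and 107 times in Sham and 16, 34, 21 and 25 times in SNI. In both genes Sham replicates 3 and 4 stood far above the other 6 libraries, whose counts ran from 10 to 34. The mean of Tgtp1 was 2.95 ± 1.73 CPM for Sham and 0.955 ± 0.451 for SNI (log2 fold change -1.64 ± 0.424), and SNI replicate 3 exceeded Sham replicate 2. Tgtp2 had a log2 fold change of -1.58 ± 0.419. On the CPM scale its lowest Sham value, 1.73, barely exceeded its highest SNI value, 1.68. Iigp1, the effector known from resistance to Toxoplasma, had 7.40, 3.92, 13.1 and 13.1 CPM in Sham and 4.83, 5.94, 5.46 and 3.13 CPM in SNI. Its groups overlapped, because Sham replicate 2 lay below 3 of the SNI libraries. Its log2 fold change was -0.96 ± 0.361, and it was not called.

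The GBP genes fell into 1 that was called and 3 that were not. Gbp3 had 17.3, 14.7, 23.1 and 19.96 CPM in the Sham libraries and 7.13, 11.3, 10.8 and 7.11 CPM in the SNI libraries, with a clear gap between the groups. Its log2 fold change was -1.04 ± 0.178, the smallest standard error of the 10. Gbp2, which encodes a vacuole-targeting GBP that carries a lipid anchor, had 4.34, 2.32, 9.67 and 10.6 CPM in Sham and 3.78, 6.44, 8.39 and 4.22 CPM in SNI. Its libraries were intermixed: the lowest of all 8 was Sham replicate 2 and the highest Sham replicate 4. Its log2 fold change was -0.25 ± 0.482. Gbp7 ranged from 5.71 to 13.6 CPM in Sham and from 5.51 to 9.92 CPM in SNI, and Gbp9 from 5.25 to 11.6 and from 5.54 to 8.05 CPM. Their log2 fold changes were -0.33 and -0.36, and neither was called.

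**Figure D2:**
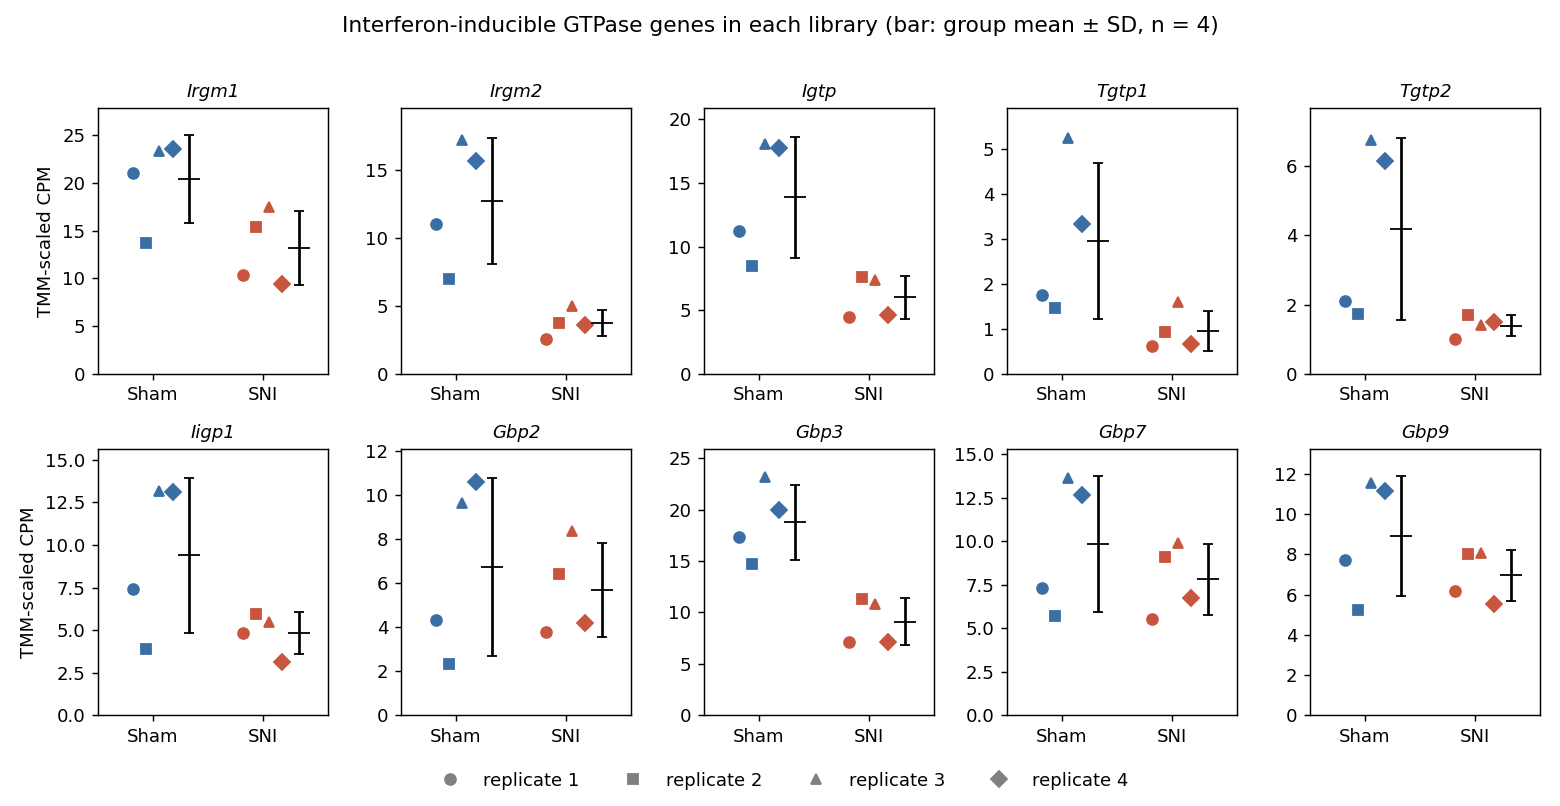
TMM-scaled CPM of the 10 genes in each library, with 1 panel per gene, symbols for the replicate number and a bar for the group mean ± SD (n = 4 libraries each). Sham replicates 3 and 4 (triangle and diamond) are the highest Sham values in all 10 panels, and Sham replicate 2 (square) is the lowest.

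The calls of Irgm2 and Gbp3 held whichever single library was left out, while those of Igtp, Tgtp1 and Tgtp2 did not. Igtp kept its call in 5 of 8 leave-one-out fits, Tgtp1 in 3 and Tgtp2 in 2. Without Sham replicate 3 the log2 fold change was closest to zero for Irgm2 (-1.59), Igtp (-1.05), Tgtp2 (-1.25), Tgtp1 (-1.21) and Iigp1 (-0.75). The call of Igtp ended without Sham replicate 3, Sham replicate 4 or SNI replicate 4. Those of Tgtp1 and Tgtp2 ended without any of these and without SNI replicates 1 or 2, and that of Tgtp2 also without SNI replicate 3. The call of Tgtp2 further ended with upper-quartile scaling and with library totals, and those of both Tgtp genes with limma voom. Gbp2 turned to a log2 fold change of 0.06 without Sham replicate 4 and was -0.54 without Sham replicate 2. Gbp7 and Gbp9 moved to -0.14 and -0.21 without Sham replicate 3. Irgm1 and Iigp1 were called only without Sham replicate 2 among the 8 leave-one-out fits.

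**Figure D3:**
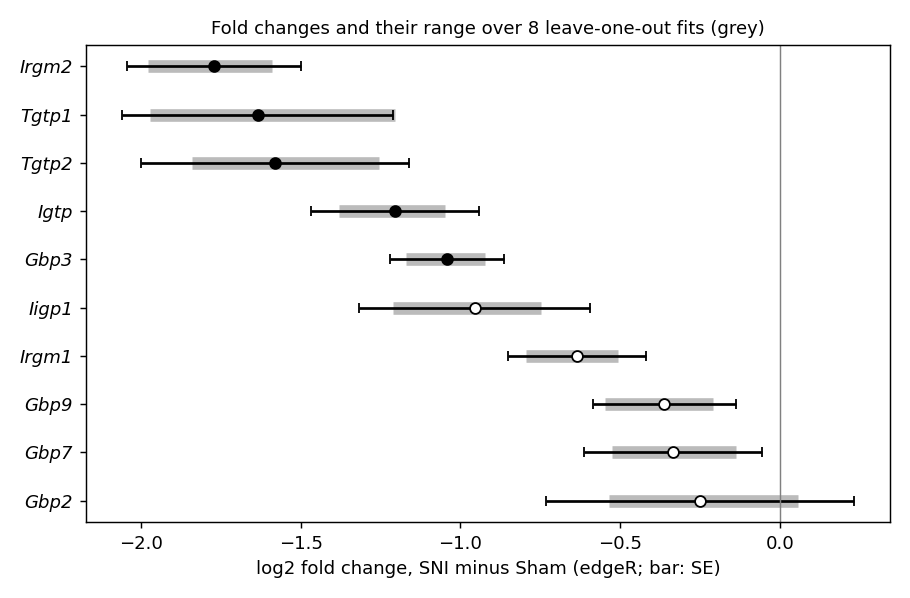
Log2 fold change (SNI minus Sham) of the 10 genes with its standard error (points and bars, filled where the gene was below an FDR of 0.05) and the range over 8 fits that each left out 1 library (grey). Irgm2, Tgtp1 and Tgtp2 lie between -1.77 and -1.58, and the grey range of Gbp2 crosses zero.

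Some of these genes cannot be counted apart with certainty. Tgtp1 and Tgtp2 lie side by side on chromosome 11 (GRCm38, 48985327 to 48994172 and 49057194 to 49064206, both on the minus strand). Of all distinct stretches of 50 bases in the GENCODE M21 transcripts of Tgtp1, 79.4% also occur in Tgtp2, and 85.8% of those of Tgtp2 occur in Tgtp1. Olfr56 overlaps both genes on the opposite strand, and the sources used here do not give whether counting used the strand. The sum of Tgtp1 and Tgtp2 was 3.87, 3.19, 12.01 and 9.46 CPM in the Sham libraries and 1.61, 2.63, 2.995 and 2.17 CPM in the SNI libraries. All 4 SNI sums thus lay below the Sham sums, with a log2 ratio of the group means of -1.60. Summed before the fit, the 2 copies were not called (-1.60 in that fit). Tgtp2 took from 46.7% to 69.4% of the summed counts, and the largest and smallest shares were both in SNI libraries. Their 95% Wilson intervals, which cover counting error only, were 32.9% to 60.9% and 53.1% to 82.0%.

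Irgm2 and Igtp also overlap, on the plus strand of chromosome 11 (58199618 to 58222782 and 58199556 to 58207591). Their exons share 162 bases, and 6.79% of the 50-base stretches of Irgm2 transcripts occur in Igtp. Their sum was 22.3, 15.5, 35.3 and 33.4 CPM in Sham and 7.06, 11.3, 12.4 and 8.26 CPM in SNI, a log2 ratio of means of -1.45, and it was called when summed before the fit. Within that sum, Irgm2 took 49.7%, 45.1%, 48.8% and 47.0% of the counts in Sham replicates 1 to 4 and 36.8%, 33.2%, 40.3% and 43.8% in SNI replicates 1 to 4. The balance between the neighbours therefore shifted from Irgm2 towards Igtp in all 4 SNI libraries, with no overlap between the groups. The nearest shares, of Sham replicate 2 and SNI replicate 4, had 95% Wilson intervals of 38.8% to 51.5% and 35.8% to 52.2%.

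The other genes were more separable by sequence. Irgm1 (chromosome 11, 48861968 to 48871683, minus strand) and Iigp1 shared 0.310% and 1.69% of their 50-base stretches with any other gene. Gbp2 and Gbp3 (chromosome 3, 142620602 to 142638008 and 142560026 to 142573209, plus strand) shared 2.03% and 3.75%. Gbp7 (chromosome 3, 142530342 to 142550149, plus strand) shared 12.7%, mostly with the pseudogene Gm43802 inside its span. Gbp9 (chromosome 5, 105077630 to 105139539, minus strand) shared 8.05% and overlaps Gbp8 and Gbp4, so its values are uncertain too.

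Per length, Igtp and Gbp3 were the most abundant of the 10 in both groups. CPM per kilobase of annotated exon was 6.86 ± 2.36 for Igtp and 5.75 ± 1.11 for Gbp3 in Sham, followed by Irgm1 (3.52), Irgm2 (3.45), Gbp2 (2.68), Gbp7 (1.75), Gbp9 (1.72), Iigp1 (1.61), Tgtp2 (1.42) and Tgtp1 (0.920). Between neighbours in that Sham order, only Gbp3 and Irgm1 had ranges that did not overlap. In SNI the order of levels per kilobase began with Igtp (2.98) and Gbp3 (2.79), and all neighbours overlapped. Irgm2 stood lower in the SNI order (1.01), behind Gbp2 (2.27), Irgm1 (2.27), Gbp7 (1.39) and Gbp9 (1.34).

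The Sham libraries lined up in nearly the same order for every gene, and the SNI libraries shared mainly their highest 2. The genes were chosen with earlier results of these libraries known, so this too is a description. In Sham, replicates 3 and 4 were the highest 2 in all 10 genes, beside 21% of all tested genes, followed by replicate 1 and then replicate 2. That whole order was found in all 10, beside 9.68% of tested genes. In SNI, replicates 2 and 3 were the highest 2 in 9 of 10 genes, beside 20.4%. The exception was Tgtp2, where replicate 4 exceeded replicate 3. The same 2 SNI libraries were highest for 9 of 11 endothelial, 8 of 11 astrocyte and 11 of 17 microglia markers. They were also highest for 22 of 46 other antiviral genes and 11 of 18 genes of the antigen presentation list. For oligodendrocyte, cortical excitatory and striatal markers the count was 0 of 9, 0 of 9 and 0 of 10. The lowest SNI library was replicate 1 in 6 genes and replicate 4 in 4, beside 24.6% and 20.7% of all tested genes. The summed level of the 10 genes was 91.3, 64.3, 142 and 134 CPM in Sham replicates 1 to 4 and 46.5, 70.1, 75.5 and 46.6 CPM in SNI replicates 1 to 4. Sham replicate 2 thus lay below SNI replicates 2 and 3 on the sum. The members are not independent of each other, so these counts describe 8 libraries and not 10 separate observations.

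The spread within Sham was wide for genes of this level. The highest Sham value exceeded the lowest 4.57-fold for Gbp2, 3.92-fold for Tgtp2, 3.59-fold for Tgtp1 and 3.35-fold for Iigp1, but 1.58-fold for Gbp3. The median coefficient of variation of the 10 genes was 38.2% in Sham and 26.1% in SNI. Over 4117 other genes within the same range of mean level it was 14.9% and 16.1%. The 2 genes with the least spread in Sham, Gbp3 (19.3%) and Irgm1 (22.5%), were also among the 4 most abundant per length.

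**Figure D4:**
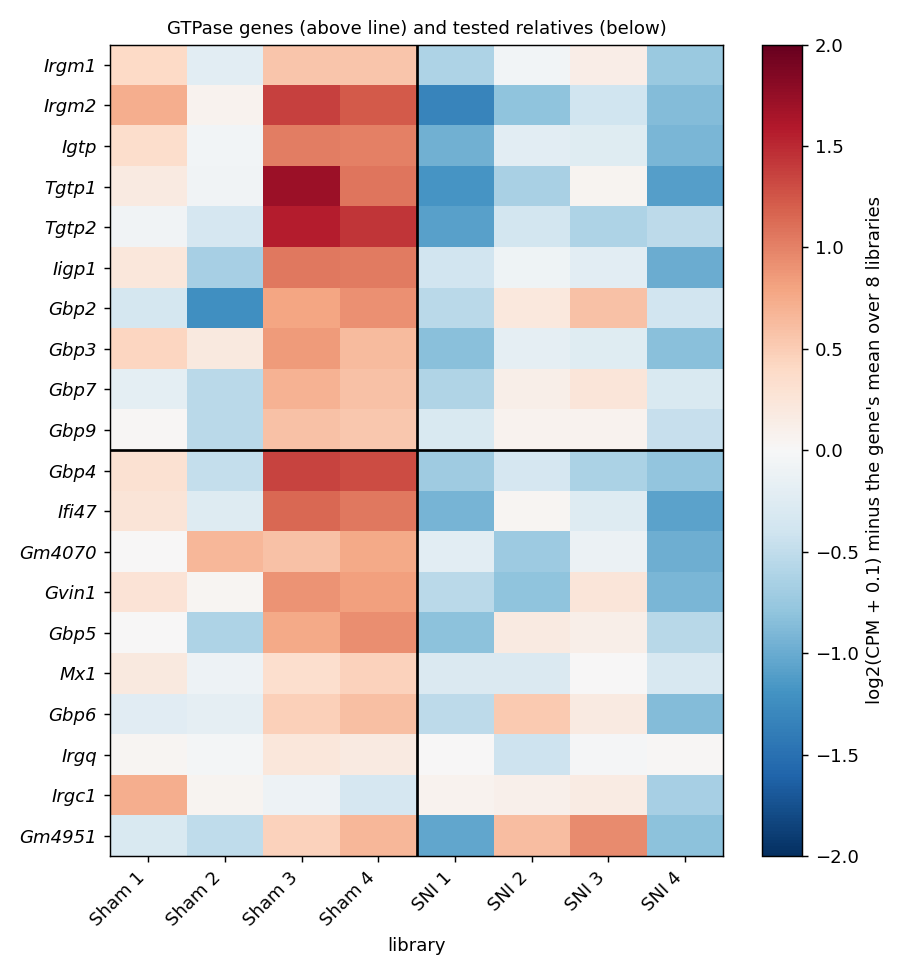
Level of the 10 genes (above the horizontal line) and of 10 tested relatives (below it) in each library, as log2(CPM + 0.1) minus the mean of the gene over 8 libraries. Above the line, Sham 3 and Sham 4 are the reddest columns, and Sham 2 is the palest or bluest Sham column for every gene.

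Genes outside the group that followed the same library order were searched by their deviations from their own group means, which leave the difference between Sham and SNI aside. Likeness was the root mean square distance from the mean deviation of the 10 genes over 8 libraries (log2 CPM, prior count 2), among 13574 other genes with a mean log2 CPM of at least 0. The closest was Gbp5, another GBP, at 0.136, against a median distance of 0.473. Next came Tnfsf10, the death ligand TRAIL (0.140), Rspo1, a Wnt agonist (0.144), Ifi47, an IRG gene (0.153), and Dtx3l, a ubiquitin ligase (0.157). Ptar1 (0.176), Galnt12 (0.196) and Melk (0.198) completed the 8, and 3 of the 8 belonged to the interferon lists used here. Those lists held 124 of the 13911 tested genes. They were chosen with earlier results of these data known, so nothing is read from this count. Gbp5 had 6.38, 4.12, 10.8 and 12.2 CPM in Sham and 3.53, 7.18, 6.92 and 4.28 CPM in SNI. Within Sham it followed the order of Gbp2, with replicate 2 low and replicate 4 high, and it did not pass between the groups (log2 fold change -0.61, edgeR adjusted p = 0.344). Tnfsf10 did not pass either (log2 fold change -0.05).

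The relatives of these genes, on a list of other IRG, GBP, giant GTPase and Mx genes, pointed the same way without passing. Of 23 listed, 10 were tested, and all 10 had a negative log2 fold change (median -0.56), beside 6652 of all 13911 tested genes. edgeR called 0 of them, 4 had an unadjusted p under 0.05, and DESeq2 called 2 and limma voom 0. Gbp4 had 9.91, 5.71, 20.7 and 19.96 CPM in Sham and 4.83, 6.34, 5.13 and 4.58 CPM in SNI (log2 fold change -1.43 ± 0.397, edgeR adjusted p = 0.0856). Its high values were again those of Sham replicates 3 and 4. Ifi47 had a log2 fold change of -1.16 ± 0.334 (edgeR adjusted p = 0.0603), and both passed without Sham replicate 2. The order of Sham libraries seen in the 10 genes was found in 7 of these 10 relatives.

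Genes near the 10 on the chromosome were not called. Within 200 kilobases, 21 other tested genes belonged to none of the interferon or marker lists, and edgeR called 0 of them (4 at an unadjusted p under 0.05, 1 by DESeq2, 0 by limma voom). Their log2 fold changes ran from -0.29 to 0.45, with a median of -0.01. Rack1, a ribosomal scaffold near Irgm1, had 0.26, and Gtf2b, a general transcription factor near Gbp2, had 0.11, both named after their values were seen.

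The interferon pathway was examined next, by lists drawn up without the 10 genes. These lists too were chosen with earlier results of these data known, so their counts are a description. Over 124 tested genes of 5 lists, 12 were lower and 3 higher in SNI, beside 2.87% and 2.15% of all tested genes. The 15 calls became 7 without Sham replicate 3 and 9 without SNI replicate 2. Of 27 signalling genes 3 were lower and 1 was higher, beside 2.87% and 2.15% of all tested genes. Irf9 and Irf7, transcription factors of the interferon response, fell (log2 fold changes -0.73 and -1.69, edgeR adjusted p of 0.00385 and 0.0255). Irf9 kept its call in 8 of 8 leave-one-out fits and Irf7 in 3, losing it without any 1 of the Sham libraries and without SNI replicate 2. Stat2, which acts in a complex with Irf9, had -0.32 and did not pass (edgeR adjusted p = 0.0562). DESeq2 and limma voom called it. Irf1, which binds GBP promoters, had -0.11 (edgeR adjusted p = 0.732).

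At the receptor level, Ifngr1, the ligand-binding chain of the interferon gamma receptor, rose from 13.9 ± 1.07 CPM in Sham to 19.0 ± 2.76 in SNI (0.45 on the log2 scale, edgeR adjusted p = 0.0462). That call ended without 7 of the 8 libraries in turn. Ifngr2 (log2 fold change -0.01), Ifnar1 (-0.09) and Ifnar2 (0.22) did not pass, with edgeR adjusted p of 0.945, 0.637 and 0.285. The interferons Ifnb1 and Ifng were not among the tested genes, so their levels were not analysed here.

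Of 46 other antiviral interferon-stimulated genes tested, 9 were lower in SNI, beside 2.87% of all tested genes. A negative log2 fold change was found in 43 (median -0.41), beside 6652 of all 13911 tested genes. Lgals3bp, a secreted glycoprotein, fell from 49.7 ± 1.66 to 20.6 ± 6.78 CPM, and Isg15, a ubiquitin-like modifier, from 9.52 ± 1.88 to 4.46 ± 1.01 CPM. Their log2 fold changes were -1.28 and -1.09, with edgeR adjusted p of 0.00392 and 0.00571. Ifi27, Ifi27l2a, Shisa5 and Rtp4 also fell, with log2 fold changes of -0.63, -1.63, -0.41 and -0.84 (edgeR adjusted p of 0.0013, 0.00522, 0.0159 and 0.0164). The call of Shisa5 ended without Sham replicate 3. In this list 18 of 46 genes had the Sham library order of the GTPases, between the 10 of 10 seen there and the 9.68% of all genes.

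A list of antigen presentation genes and targets of interferon gamma included none called lower in SNI, beside 2.87% of all tested genes. Of 18 tested, 16 had a positive log2 fold change, beside 7259 of all 13911 tested genes, and the median was 0.22. Ciita (-0.39) and Tap1 (-0.24) were negative and were not called. DESeq2 called 2 of the 18 higher and edgeR 1, beside 2.15% of all tested genes called higher by edgeR. The edgeR call was not an antigen presentation gene but Ido1, a tryptophan-degrading enzyme (log2 fold change 1.99 ± 0.442, edgeR adjusted p = 0.0191). Its highest Sham value was 0.975 CPM and its lowest SNI value 1.61 CPM. The call of Ido1 ended without Sham replicate 3 or SNI replicate 2. The last list held 23 genes that attach GTPases to membranes or act downstream of them, such as the ATG8 conjugation proteins and inflammasome components. Among the 23, 1 was called, beside 5.02% of all tested genes called in either direction, so nothing is read from this count. The called gene was Traf6, a ubiquitin ligase of innate signalling. It rose from 13.6 ± 1.27 CPM in Sham to 18.7 ± 1.66 in SNI (0.46 on the log2 scale, edgeR adjusted p = 0.0308), a call that ended without 6 of the 8 libraries in turn. The median of that list was 0.04.

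**Figure D5:**
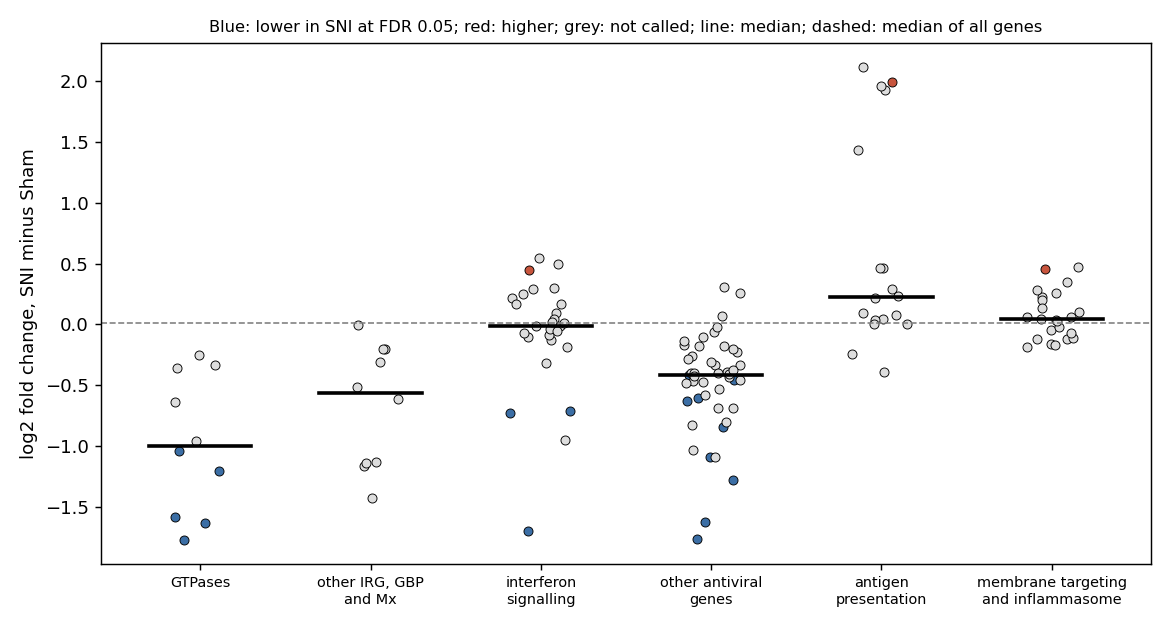
Log2 fold changes (SNI minus Sham) of the 10 GTPases and of the tested genes of 5 interferon lists, 1 point per gene, with the list median as a line and the median of all tested genes as a dashed line. Blue and red points were lower and higher at an FDR of 0.05. The GTPases, their relatives and the antiviral genes have medians of -0.999, -0.56 and -0.41. The list labelled antigen presentation, which also holds Ido1, has 0.22.

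Library totals ran from 14735602 to 19602487 counts, and the Tgtp genes rest on few reads. Summed levels of 9 cortical excitatory neuron markers were 2387 to 2713 CPM in Sham and 1703 to 2587 CPM in SNI. Striatal markers (10 genes) summed to 253 to 502 CPM in Sham and 377 to 901 CPM in SNI, highest in SNI replicates 2 and 4. Without these 2 libraries, 1 of the 10 GTPases was called (Gbp3), and with the striatal sum as a covariate 0 were. With that covariate the log2 fold change of Tgtp1 moved from -1.64 to -1.16, and those of Irgm2, Tgtp2, Igtp and Gbp3 were -1.77, -1.56, -1.22 and -1.06. Among cells known to respond to interferon, 17 microglia markers summed to 646 to 796 CPM in Sham and 673 to 1049 CPM in SNI. The microglia sum includes Cx3cr1, at 44.8 to 55.3 CPM in Sham and 1.54 to 2.23 CPM in SNI. It was highest in SNI replicates 2 and 3 (838 and 1049 CPM), and within Sham in replicates 4 and 2 (796 and 724 CPM). The 11 astrocyte markers summed to 4022 to 4875 CPM in Sham and 3935 to 5110 CPM in SNI. The 11 endothelial markers summed to 355, 382, 411 and 423 CPM in Sham replicates 1 to 4 and 364, 448, 497 and 347 CPM in SNI replicates 1 to 4. The highest 2 libraries within each group were thus those with the highest GTPase levels. The SNI sums, 347 to 497 CPM, reached below and above the Sham range of 355 to 423 CPM. The astrocyte sum had the same highest 2 libraries, with 4509 and 4875 CPM in Sham replicates 3 and 4 and 4859 and 5110 CPM in SNI replicates 2 and 3. Both sums were lowest in Sham replicate 1 (355 and 4022 CPM) among the Sham libraries. All 10 GTPases were instead lowest in Sham replicate 2. The sums of 5 choroid plexus and ependymal markers did not overlap between the groups, at 7.10 to 9.29 CPM in Sham and 13.1 to 20.6 CPM in SNI, and Ttr, Rarres2 and Clic6 among them were called higher. Of 16 peripheral leukocyte markers 4 were tested, which summed to 5.71 to 11.2 CPM in Sham and 9.42 to 19.8 CPM in SNI. The T cell markers Cd3e and Cd8a were not among the tested genes. The part of these cell types in the GTPase levels was not tested, and in bulk tissue fewer cells of a type and less RNA per cell cannot be told apart.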

How the data were processed

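The values are deposited whole-number counts of reads per gene for 4 Sham and 4 SNI libraries. The tools fastp, HISAT2 and StringTie and the build GRCm38 are named, per the submitters' processing notes. The annotation, the strand setting and the step from StringTie to counts are not given in the sources used here. No gene has a count below 1 in any library. Groups and replicate numbers came from the titles. Counts were filtered with filterByExpr, scaled by TMM and tested with edgeR 4.0.16 in R 4.3.3 (robust quasi-likelihood F-test, two-sided, group only, FDR 0.05, adjusted over 13911 genes). The biological coefficient of variation was 12.1%. The standard error is the log2 fold change divided by the square root of F. The fit was tested on simulated counts. Coordinates and exon lengths came from GENCODE M21, promoters from RefSeq. Alternatives were 3 scalings, 2 filters, DESeq2 1.42.0, limma 3.58.1 (voom, quality weights), copied genes summed, a block for the replicate number and leaving out each library. A pair of alternatives on striatal markers were added after seeing the data. Members, lists and the naming rule were chosen with earlier results of these data known. The rule named all 10 members, up to 6 called genes of each list in order of p (or the 2 of smallest p), 4 receptors, 5 transcription factors and the 8 genes of greatest likeness. Some single-gene results are not reported here.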

Additional observations from a re-analysis of the deposited data

Results flagged for a closer look

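Isg15 in Sham replicate 3 stood apart from the other Sham libraries, at 12.3 CPM against 8.23 to 8.77 CPM. It was the 1 library that lay far from the rest of its group (Dixon's test at the 95% level) among 58 groups of 4 libraries examined for the GTPases and the other named genes. About 1 group in 20 would be marked in this way by chance. The same library was the highest Sham library for 8 of the 10 GTPases.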

How the results depend on the processing

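All 10 GTPases kept a negative log2 fold change under every scaling, filter and tool and under the replicate block, and on leaving out 1 library Gbp2 alone turned, its log2 fold change running from -0.54 (without Sham replicate 2) to 0.058 (without Sham replicate 4). The count of called GTPases (5) was 6 with DESeq2, which added Irgm1. It was 3 with limma voom and 2 of 8 features with the copies summed. It was 1 without SNI replicates 2 and 4 and 0 with the striatal covariate. Leaving out each library in turn gave 2 (without Sham replicates 3 or 4 or SNI replicate 4) to 7 (without Sham replicate 2). The count was 3 without SNI replicates 1 or 2. The 698 genes called in all became 1153 with DESeq2, 438 without SNI replicates 2 and 4, 55 with the striatal covariate and 258 (without Sham replicate 3) to 858 (without SNI replicate 1) on leaving out 1 library, with 297 without SNI replicate 3, 430 without Sham replicate 2 and 447 without Sham replicate 1. The 15 called interferon pathway genes became 24 with DESeq2, 7 without SNI replicates 2 and 4, 2 with the striatal covariate (Ifi27 and Lgals3bp) and 7 (without Sham replicate 3) to 19 (without SNI replicate 1) on leaving out 1 library, with 9 without SNI replicate 2. The cause of these shifts was not tested. With the replicate block the counts were 5 GTPases, 14 pathway genes and 518 genes in all. Same-numbered libraries did not deviate together (correlations across genes of -0.148 to -0.00560). This cannot settle whether the numbers mark pairs, because larger differences among libraries could hide a small shared effect. The titles do not say either. The log2 fold change of Ifngr2, near zero throughout, turned to 0.0083 with upper-quartile scaling, 0.033 with library totals, 0.032 with limma voom and 0.0075 with the striatal covariate, and that of Ifngr2 ran from -0.054 to 0.045 on leaving out 1 library. The log2 fold change of Irf1 turned to 0.071 without SNI replicates 2 and 4 and to 0.053 with the striatal covariate. With library totals alone 446 of 722 called genes were higher, against 299 of 698. Counts near 20 per library limit what can be said of Tgtp1 and Tgtp2.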

Other observations

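Genes of MHC class II, which are induced by interferon gamma in microglia and in border macrophages, varied most in SNI and are named here after their values were seen. Cd74, the invariant chain, had 2.24, 3.65, 3.98 and 5.91 CPM in Sham replicates 1 to 4 and 7.25, 16.3, 41.5 and 4.28 CPM in SNI replicates 1 to 4. SNI replicate 3 was the highest library and SNI replicate 4 lay within the Sham range. With a log2 fold change of 2.12 ± 0.797 (SE), Cd74 was not called by edgeR (edgeR adjusted p = 0.201), while DESeq2 called it. H2-Ab1 had the same highest library, at 12.6 CPM in SNI replicate 3 and 1.21 CPM in SNI replicate 4. It was not called in the main fit but was called without SNI replicate 4. SNI replicates 2 and 3 were thus the highest SNI libraries for class II genes as they were for 9 of the 10 GTPases, whereas the group means stood in opposite order.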
